A study of Mus musculus with 30 samples.

Results

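The proteasome subunit genes were the mouse genes whose symbol is Psma, Psmb, Psmc, Psmd, Psme, Psmf or Psmg followed by a number, leaving out Psmb8 and Psmb9. Of the 20764 genes counted in hearts 45 were members, and of the 54532 genes counted in HL-1 cells 46 were members. The choice used the symbols only and no measured value. All 45 heart members were among the 15443 genes tested in hearts. In HL-1 cells 44 of the 46 were among the 14760 genes tested, and Psma8, the testis form of an alpha subunit, and Psmb11, the thymus form of a beta subunit, were not.

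RNA was sequenced from 18 hearts of female C57BL6 mice kept in 12:12 light/dark cycles on standard chow, with 3 hearts in each of 6 groups. The mice were a cross of the J and N substrains. The groups were young mice (2 months), old mice drinking plain water (12 months, called old) and old mice given nicotinamide riboside (NR), an NAD+ precursor, at 3 g/L in drinking water from 2 months of age (12 months, called old + NR), each collected at zeitgeber time (ZT) 10 in the light or ZT22 in the dark. RNA was also sequenced from 12 cultures of HL-1 cells, a single line grown out of a tumor of the mouse atrium, 3 cultures each left untreated or treated with FK866, an inhibitor of the NAD+ salvage enzyme NAMPT, with FK866 + NR, or with FK866 + NR + Ex527, an inhibitor of the NAD+-dependent deacetylase SIRT1. The p-values for HL-1 cells measure the spread between cultures of 1 line. The hearts were whole tissue, in which fewer cells of a type and less RNA per cell cannot be told apart.

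Proteasomes break down proteins that carry ubiquitin chains. The core particle is a barrel of alpha and beta rings, with the cutting sites inside on Psmb5, Psmb6 and Psmb7. The regulatory particle on its ends has a base, whose Psmc ATPases unfold the substrate, and a lid, whose Psmd14 takes the ubiquitin off. Other caps (Psme1 with Psme2, Psme3 and Psme4) open the barrel without ubiquitin, Psmf1 inhibits it, and the Psmg proteins and Psmd5, Psmd9 and Psmd10 are chaperones that put the particles together. Heart muscle relies on proteasomes to renew its contractile proteins.

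The promoters of the genes that the results turn on are given first, from RefSeq on GRCm38.p6. A promoter window of 250 bases before to 50 bases after a transcription start was listed for 38 of the 46 members. Windows were searched on both strands for 6 motifs: the ETS core CGGAAG, the GC box GGGCGG, the antioxidant response element TGACNNNGC, the interferon response repeat (TTTC, any 2 bases, TTTC), the CCAAT box CCAAT and the E-box CACGTG, which is its own reverse complement. Motifs could share bases with each other, as the GC box and the ETS core can at CGG. The ETS core was found in the windows of 22 of 38 members (57.9%) and of 18.8% of the 27025 genes with a window. The GC box was found for 22 of 38 members (57.9%) and 38.2% of all genes. The antioxidant response element was found for 6 of 38 members (15.8%: Psmb5, Psmb6, Psmc6, Psmd12, Psmd9 and Psme4) and 14% of all genes. The interferon response repeat was found for 5 of 38 members (13.2%: Psmb3, Psmd4, Psmd9, Psme1 and Psmg4) and 3.99% of all genes. The CCAAT box was found for 13 members (34.2%) and 41.1% of all genes. The E-box, the motif bound by the clock activators, was found for 4 members (10.5%: Psma4, Psmb10, Psmd9 and Psme3) and 8.09% of all genes. A match is a stretch of letters and no evidence of binding.

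The sequences below are the part of each window before the transcription start, 5′ to 3′ on the strand of the gene, without bases that an annotated exon covers, which leaves out the bases next to the start for Psmb5 and Psme2. Capitals mark the motifs listed above. Psmb5 was the member that varied most among hearts apart from the low Psma8. Psmb6 and Psme2 passed an adjusted p of 0.05 as lower with FK866 + NR than in untreated cells under every alternative fit. Psmd4 fell from FK866 to FK866 + NR and rose when Ex527 was added, as Psmb6 did. Psmg4 had the widest fold change from FK866 to FK866 + NR.
Psmb5 promoter, chr14:54618023-54618245, minus strand: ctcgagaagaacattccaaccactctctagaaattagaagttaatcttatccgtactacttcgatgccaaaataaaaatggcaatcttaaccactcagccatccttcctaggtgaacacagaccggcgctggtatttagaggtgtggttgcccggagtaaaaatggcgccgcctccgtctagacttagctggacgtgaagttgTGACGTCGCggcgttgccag
Psmb6 promoter, chr11:70525107-70525356, plus strand: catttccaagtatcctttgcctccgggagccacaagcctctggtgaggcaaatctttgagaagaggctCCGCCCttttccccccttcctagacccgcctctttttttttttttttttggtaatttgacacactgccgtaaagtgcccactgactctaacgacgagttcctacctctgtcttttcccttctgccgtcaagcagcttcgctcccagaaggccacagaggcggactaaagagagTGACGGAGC
Psmd4 promoter, chr3:95042615-95042864, minus strand: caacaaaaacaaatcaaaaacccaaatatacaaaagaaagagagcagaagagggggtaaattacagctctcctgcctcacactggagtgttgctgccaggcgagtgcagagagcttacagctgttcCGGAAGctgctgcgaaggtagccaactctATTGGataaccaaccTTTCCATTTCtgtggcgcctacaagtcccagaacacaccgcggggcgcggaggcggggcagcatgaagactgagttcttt
Psme2 promoter, chr14:55591114-55591351, minus strand: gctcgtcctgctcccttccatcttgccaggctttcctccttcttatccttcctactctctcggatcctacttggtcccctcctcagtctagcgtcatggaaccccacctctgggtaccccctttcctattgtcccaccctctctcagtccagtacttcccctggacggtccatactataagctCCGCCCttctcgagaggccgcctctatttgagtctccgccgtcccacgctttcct
Psmg4 promoter, chr13:34162714-34162963, plus strand: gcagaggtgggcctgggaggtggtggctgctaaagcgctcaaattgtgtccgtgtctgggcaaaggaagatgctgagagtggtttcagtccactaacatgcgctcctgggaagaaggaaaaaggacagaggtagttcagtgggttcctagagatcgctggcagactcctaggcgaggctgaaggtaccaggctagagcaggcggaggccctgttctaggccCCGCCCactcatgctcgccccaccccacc
Psmb5 held an antioxidant response element 47 bases before the start, and Psmb6 held one 9 bases before it with a GC box farther up. Psmd4 held an ETS core, a CCAAT box and an interferon response repeat. Psme2 and Psmg4 held 1 GC box each in these stretches.

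Library totals ran from 3922137 to 7562215 counts in hearts and from 21337922 to 35000109 in HL-1 cells. In hearts the markers of cardiac muscle were high, with Myh6, the alpha myosin heavy chain, at 267 and Actc1, cardiac actin, at 305 CPM per kilobase (counts scaled to a common library total and divided by gene length), and the atrial light chain Myl7 ran from 50.5 to 245 among hearts. Duplicate reads were removed from the heart libraries before counting, without molecular identifiers, which holds down the counts of abundant genes: Myh6 had 9056 to 10336 counts and Actc1 2549 to 2847, while the library totals spanned a much wider range. Their levels are therefore lower bounds. How far the removal lowered the counts of subunit genes was not tested, and Psmc5, the highest of them per length, had 478 to 916 counts over a length of 1394 bases. The HL-1 libraries went against their label of cardiomyocyte: on the same scale Myh6 was at 0.0112, Tnnt2 (cardiac troponin T) at 0.0643, Ryr2 (the cardiac calcium release channel) at 0.0114 and Nppa (the atrial natriuretic peptide) at 0.0226, Actc1 and Myl2 had 0 counts in all 12 libraries, and the collagen gene Col1a1 was at 93.2. Of the Ryr2 counts 77 came from FK866 + NR replicate 1 and 0 to 4 from each other culture. That culture also had 37 counts of the globin gene Hbb-bs and 15 of the leukocyte gene Ptprc, which had 0 or 1 in the others, and 10 of Kdr and 7 of Cdh5, both endothelial, which reached 5 and 2 elsewhere. The name HL-1 is kept as the label gives it. In the old + NR hearts at ZT10, replicates 1 and 3 differed by little more than sampling noise (chi-square of 1.06 per gene over 15447 genes, p = 2.44e-07), while the next closest pair of replicates stood at 1.65. They were kept as separate hearts.

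The subunit genes together took 0.4478 to 0.4997% of the counts of a heart library and 0.7235 to 0.9006% of an HL-1 library. The removal of duplicates also lowered the heart totals that shares and levels are taken over. Heart values can therefore not be set against those of HL-1 cells. Levels are given as TMM-normalised CPM per kilobase of gene length, as mean ± SD over all libraries of a kind. The length was the one listed with the HL-1 counts, and the order of genes by level depends on it. It was 899 bases for Psmb5, 3421 for Psmb7 and 1705 for Psmb10. Before division by length Psmb7 had more counts than Psmb5 in every heart, as with 381, 384 and 362 against 148, 187 and 183 in old hearts at ZT10. The genes were highest in hearts for the base ATPase Psmc5 (91.9 ± 5.82, n = 18) and the alpha subunit Psma6 (91 ± 7.58), and levels of different genes were not tested against each other. They were lowest for the chaperone Psmg3 (2.59 ± 0.461) and for Psma8 (1.57 ± 0.502). The 3 cutting subunits stood at 54 ± 4.12 for Psmb6, 31.6 ± 7.07 for Psmb5 and 20.2 ± 1.99 for Psmb7, and Psmb10, the inducible form that takes the place of Psmb7 in the immunoproteasome, stood at 33.5 ± 2.95. The inducible Psmb8 (8.53 ± 1.23) and Psmb9 (5.07 ± 0.911), which are no members, were lower. Among the caps Psme4 (61 ± 4.76) and Psme1 (58.7 ± 5.13) were above Psme3 (43.5 ± 1.74) and Psme2 (30 ± 2.08), and the inhibitor Psmf1 stood at 8.34 ± 0.366.

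In HL-1 cells the base subunit Psmd2 (213 ± 15.4, n = 12) and the ATPase Psmc1 (198 ± 13.6) were highest, with Psma6 at 171 ± 26.6. The cutting subunits stood close together at 85.7 ± 10.8 for Psmb6, 70.1 ± 9.66 for Psmb5 and 66.2 ± 7.61 for Psmb7. The inducible forms were low, with Psmb10 at 12 ± 1.68, Psmb8 at 1.42 ± 0.223 and Psmb9 at 0.511 ± 0.146. Psma8 had 0 counts in all 12 libraries, and Psmb11 ran from 0 to 0.0385. The hearts and the cells were prepared, counted and normalised separately, so their levels stand side by side without a test. The 6 pseudogenes of members in the HL-1 table held between 0 and 16 counts over all 12 libraries.

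**Figure D1:**
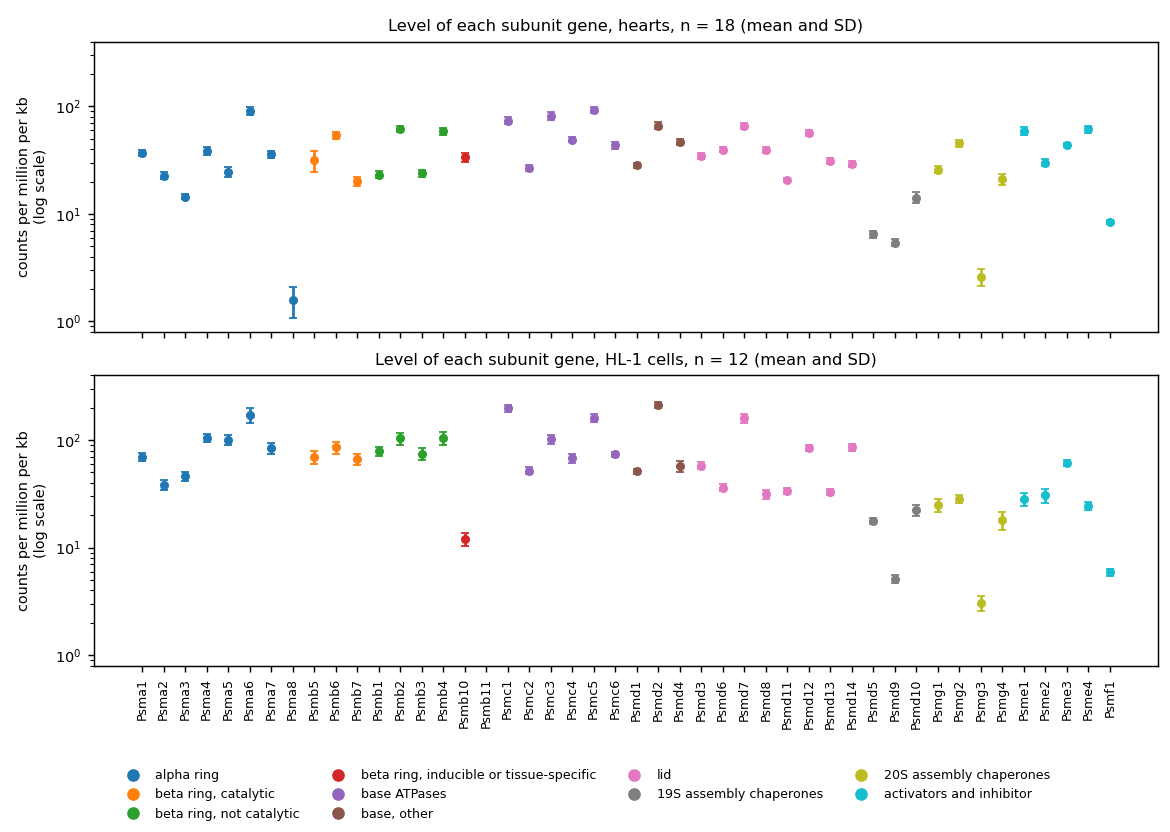
Level of each subunit gene in hearts (top, n = 18) and HL-1 cells (bottom, n = 12) in CPM per kilobase on a log axis, with points at the mean, bars for the SD and colors for the role. Psmc5 and Psma6 led in hearts and Psmd2 and Psmc1 in HL-1 cells, and Psma8 and Psmb11 are left blank in the lower panel. Levels cannot be set against each other between the panels.

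The spread of a member over all 18 hearts includes counting noise and was not set against that of all genes. The part of the removal of duplicates in it was not tested. The coefficient of variation was 3.66% for the lid subunit Psmd11, 3.99% for Psme3, 4.39% for Psmf1 and 4.9% for the ATPase Psmc4. It stayed under that of Psmb5 (22.4%) for every member but the low Psma8 (32%), which had 4 to 24 counts. The deepest library of a group had the lowest median member level in 6 of 6 heart groups and in 2 of 4 HL-1 groups. A fit with library size as a covariate is given with the alternatives.

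The first question in hearts was whether subunit genes differ between ZT10 and ZT22. No member passed an adjusted p of 0.05 in edgeR's quasi-likelihood test in young hearts, in old hearts or in old + NR hearts, where 14.4%, 4.2% and 5.37% of all genes tested did. At an unadjusted p under 0.05 there were 2, 5 and 3 members of 45, where 26.8%, 17.7% and 18% of all genes passed, and DESeq2 called 0, 0 and 1 (Psmb5). The median log2 fold change of the 45 members, ZT10 over ZT22, was 0.04 in young, 0.12 in old and 0 in old + NR hearts, against 0.01, 0 and -0.01 for all genes, and 8, 5 and 26 of the members had a negative value, where 48.8%, 50.2% and 52.7% of all genes did. Single hearts moved these values: the median in old hearts was 0.05 without ZT22 replicate 3, the negative values in young hearts were 19 without ZT22 replicate 2 and 14 and 12 without ZT10 replicates 3 and 1, and with library size as a covariate, chosen after seeing the data, they were 13. In old hearts they were 8 without ZT22 replicate 3 and 3 without ZT22 replicate 2, and the median was 0.07 without ZT10 replicate 1. In old + NR hearts they were 8 without ZT10 replicate 2, with a median of 0.06, 10 without ZT22 replicate 1, with a median of 0.05, and 34 without ZT10 replicate 1, with a median of -0.04. The standard error of a single member was 0.08 in the median.

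Psmb5, the subunit with the chymotrypsin-like cutting site, had the smallest p in old + NR hearts. Its normalised counts were 127, 177 and 185 in young hearts at ZT10, 208, 112 and 189 in young hearts at ZT22, 173, 179 and 213 in old hearts at ZT10, 179, 143 and 104 in old hearts at ZT22, 172, 173 and 204 in old + NR hearts at ZT10 and 129, 114 and 114 in old + NR hearts at ZT22. The old + NR hearts at the 2 times did not overlap, the old hearts overlapped by 1 heart at ZT22, and the young hearts overlapped. The log2 fold change in old + NR hearts was 0.63 ± 0.19 (SE; 95% interval 0.21 to 1.04) with an adjusted p of 0.0569 in edgeR's quasi-likelihood test. That p ran from 0.00325 to 0.201 over 13 alternatives, and the gene passed the threshold under 4 of them. In old hearts the fold change of Psmb5 was 0.46, the widest of the 45 there. The difference between these 2 fold changes, tested as an interaction term, was 0.17 ± 0.27 (adjusted p = 0.868 in edgeR's test).

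Psmg4, a chaperone of the alpha ring, had the smallest p in young hearts. Its normalised counts were 75.6, 71.5 and 70.3 in young hearts at ZT10, 57, 57.2 and 56.4 in young hearts at ZT22, 67.7, 55.6 and 54.6 in old hearts at ZT10, 67.7, 60.05 and 69.3 in old hearts at ZT22, 76.7, 72.6 and 66.9 in old + NR hearts at ZT10 and 59.1, 67.4 and 73 in old + NR hearts at ZT22. The young groups did not overlap, with the 3 hearts at ZT22 within 1 count of each other, while in old hearts the mean was lower at ZT10 than at ZT22 and the groups overlapped. The log2 fold change was 0.35 ± 0.14 (95% interval 0.05 to 0.65) in young hearts, with an adjusted p of 0.11 in edgeR's quasi-likelihood test. Psmd7, a lid subunit that pairs with Psmd14, had the smallest p in old hearts, with counts of 939.7, 854 and 917 at ZT10 and 815, 798 and 766 at ZT22. Its groups did not overlap, and the fold change of 0.19 ± 0.07 (95% interval 0.05 to 0.33) had an adjusted p of 0.114 in the same test.

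Whether the time difference itself changed with age or with NR was tested with interaction terms. No member passed in edgeR's quasi-likelihood test for age by time, where 6.89% of all genes did, or for NR by time, where 0.343% did, and 2 members each had an unadjusted p under 0.05, where 21.8% and 10.3% of all genes did. DESeq2 called 0 in both. The median interaction was 0.07 for age, with 10 of 45 negative (49.4% of all genes), and -0.12 for NR, with 36 of 45 negative (51.9% of all genes), against medians of 0 and -0.01 for all genes. The median for NR was -0.05 without old + NR replicate 2 at ZT10, without old replicate 3 at ZT22 or without old + NR replicate 1 at ZT22, with 34 negative in each of these fits, and it was -0.08 without old replicate 1 at ZT10. The median for age was 0.02 with 16 negative without old replicate 3 at ZT22, 0.03 with 15 negative without old replicate 1 at ZT10 and 0.11 with 5 negative without old replicate 1 at ZT22. The smallest p values were those of Psmg4 for age (-0.5 ± 0.19, adjusted p = 0.134) and Psmd7 for NR (-0.28 ± 0.09, adjusted p = 0.273) in edgeR's test. These terms use the same old hearts as the comparisons above.

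Age and NR were then compared at a fixed time. Between old and young hearts no member passed in edgeR's quasi-likelihood test at ZT10 (5.87% of all genes did) or at ZT22 (14.1% did), and 0 and 4 members had an unadjusted p under 0.05, where 19.7% and 27.5% of all genes did. Between old + NR and old hearts no member passed at ZT10 (0.285% of all genes did) or at ZT22 (0.35% did), with 2 and 1 members at an unadjusted p under 0.05, where 10.1% and 11.2% of all genes passed. DESeq2 called 0 in all 4. Old against young, the median log2 fold change was -0.01 at ZT10, with 24 of 45 negative (50.3% of all genes), and -0.07 at ZT22, with 34 negative (50.9% of all genes). With NR against without, it was -0.07 at ZT10, with 38 of 45 negative (50.8% of all genes), and 0.04 at ZT22, with 8 negative (47.5% of all genes). The value at ZT10 was 0 with 24 negative without old + NR replicate 2, -0.04 with 34 negative without old replicate 1, and -0.02 with 29 negative with library size as a covariate. That at ZT22 was -0.01 without old replicate 3 or without old + NR replicate 1, with 23 and 26 negative, and 0.09 and 0.08 without old replicate 1 or old + NR replicate 2. For old against young at ZT22 it was -0.02 with 26 negative without old replicate 3, and -0.11 without old replicate 1. The medians of all genes in the 4 comparisons were 0, 0, 0 and 0.01. The members' median of a single heart had an SD of 0.083 between hearts of a group. The medians of the comparisons rest on 3 hearts per group and were not tested against this spread.

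Members nearest to the threshold at ZT22 were Psmg2 and Psmb10. Psmg2, the partner of the chaperone Psmg1, stood at 271, 239 and 244 in old and 318, 268 and 294 in young hearts at ZT22, and the groups overlapped by 1 heart on each side. Its log2 fold change was -0.23 ± 0.08 (95% interval -0.4 to -0.06), with an adjusted p of 0.0554 in edgeR's quasi-likelihood test, and it passed when old replicate 1 or young replicate 2 was left out. Psmb10 stood at 361, 337 and 308 in old and 269, 254 and 324 in young hearts, with a single young heart inside the range of the old. Its log2 fold change was 0.24, and it passed when that heart, young replicate 3, was left out, as it did then in young hearts between the times. Its immunoproteasome partners Psmb8 and Psmb9 did not pass in any heart comparison. For NR, Psmg1 at ZT10 stood at 207, 212 and 236 with and 184, 187 and 185 without it, groups that did not overlap, with a fold change of 0.23 ± 0.08 and an adjusted p of 0.277 in edgeR's test. Between the same groups 3 of the 4 markers of the atrium were lower with NR, with log2 fold changes of -2.69 ± 0.52 for Sln (adjusted p = 0.0286), -1.97 ± 0.39 for Myl4 (adjusted p = 0.0313) and -1.8 ± 0.33 for Myl7 (adjusted p = 0.0227) in edgeR's test. Nppa, at -0.9 ± 0.2, did not pass (adjusted p = 0.0522). In each of these 4 genes the 3 hearts with NR lay below the 3 without, as in Myl7 with raw counts of 210, 212 and 224 against 597, 587 and 704. The calls of Sln, Myl4 and Myl7 were lost in some fits with 1 heart left out, which leave fewer hearts in that group. The separation of all 3 hearts with NR from all 3 without does not rest on a single heart. Leaving out plain-water replicate 3 took the genes called, among all tested, from 44 to 0. The same happened when either of the NR hearts that differed by little more than sampling noise was dropped. The count was 3 and 22 without plain-water replicates 1 and 2, and 4 without replicate 2 of the NR hearts. Between old hearts at ZT10 and ZT22 Myl7 was also higher at ZT10 (1.14 ± 0.31, adjusted p = 0.0381). The part of the atrial share in the members' values was not tested. The ATPase Psmc5 had the smallest p at ZT22, at 822, 686 and 714 with and 719, 653 and 639 without NR (0.14 ± 0.07, adjusted p = 0.435 in edgeR's test), and its groups overlapped.

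The other cutting subunits, the lid and the caps varied less than Psmb5 among hearts. The normalised counts of Psmb6 were 598, 571 and 599 in young hearts at ZT10, 634, 549.6 and 588 in young hearts at ZT22, 588, 537 and 587 in old hearts at ZT10, 596, 539.5 and 479 in old hearts at ZT22, 566, 501 and 612 in old + NR hearts at ZT10 and 647, 532 and 551 in old + NR hearts at ZT22. Those of Psmb7 were 414, 396 and 431 in young hearts at ZT10, 404, 385 and 391 in young hearts at ZT22, 445, 368 and 421 in old hearts at ZT10, 436, 368 and 319 in old hearts at ZT22, 384, 319 and 408 in old + NR hearts at ZT10 and 443, 353 and 358 in old + NR hearts at ZT22. The group means ran from 538.1 to 590.5 for Psmb6 and from 370.2 to 413.4 for Psmb7, and no pair of compared groups was without overlap. Psmb10 stood at 357, 309.9 and 309 in young hearts at ZT10, 269, 254 and 324 in young hearts at ZT22, 348, 351 and 322 in old hearts at ZT10, 361, 337 and 308 in old hearts at ZT22, 312, 347 and 338 in old + NR hearts at ZT10 and 328, 305 and 326 in old + NR hearts at ZT22. Its group means ran from 282.3 to 340.3.

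Psmd11 of the lid stood at 767, 771 and 755 in young hearts at ZT10, 738, 778 and 759.7 in young hearts at ZT22, 768, 698 and 735 in old hearts at ZT10, 745, 732 and 698 in old hearts at ZT22, 741, 712 and 756 in old + NR hearts at ZT10 and 792, 711 and 753 in old + NR hearts at ZT22. Psmd14 stood at 496, 467 and 442 in young hearts at ZT10, 506, 409 and 456 in young hearts at ZT22, 512, 482 and 478 in old hearts at ZT10, 484, 465 and 416 in old hearts at ZT22, 478, 411 and 479.5 in old + NR hearts at ZT10 and 477, 424 and 469 in old + NR hearts at ZT22. Compared groups overlapped for both, with group means from 724.9 to 764.4 for Psmd11 and from 455.2 to 490.6 for Psmd14.

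Of the caps, Psme1 stood at 774, 763 and 809 in young hearts at ZT10, 757, 646 and 719 in young hearts at ZT22, 787, 752 and 740.4 in old hearts at ZT10, 791, 695 and 595 in old hearts at ZT22, 762, 655 and 756 in old + NR hearts at ZT10 and 841, 674 and 675 in old + NR hearts at ZT22. Psme2 stood at 312, 309 and 314 in young hearts at ZT10, 329.5, 276 and 311 in young hearts at ZT22, 313, 321 and 289 in old hearts at ZT10, 293, 289 and 266 in old hearts at ZT22, 332, 263 and 292 in old + NR hearts at ZT10 and 304, 277 and 284 in old + NR hearts at ZT22. The young hearts at ZT10 lay above those at ZT22 for Psme1 (0.15, adjusted p = 0.35 in edgeR's quasi-likelihood test), and compared groups of Psme2 overlapped throughout. Psme3 stood at 736, 723 and 748 in young hearts at ZT10, 699.6, 717 and 717 in young hearts at ZT22, 752, 739 and 723 in old hearts at ZT10, 683, 713 and 669.8 in old hearts at ZT22, 788, 708 and 766 in old + NR hearts at ZT10 and 745, 701 and 731 in old + NR hearts at ZT22. Psme4 stood at 2867, 3124 and 3083 in young hearts at ZT10, 2900, 2647 and 2959 in young hearts at ZT22, 2868, 2924 and 2666 in old hearts at ZT10, 3254, 2893 and 2609 in old hearts at ZT22, 2835, 2305 and 2875 in old + NR hearts at ZT10 and 3143, 3038 and 3002 in old + NR hearts at ZT22. For Psme3 the ZT10 hearts lay above the ZT22 hearts in young (0.05, adjusted p = 0.653) and old mice (0.1, adjusted p = 0.356), and for Psme4 the old + NR hearts at ZT10 lay below those at ZT22 (-0.2, adjusted p = 0.269), all in edgeR's test. None of these passed.

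**Figure D2:**
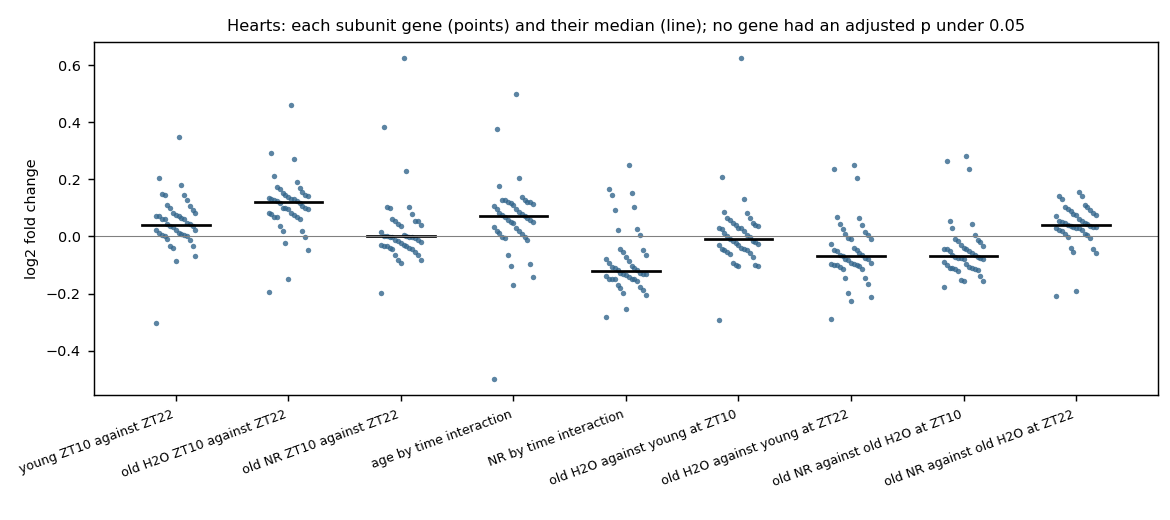
Log2 fold change of each of the 45 subunit genes (points) in the 9 heart comparisons, with the median of the members as a line. The medians run from -0.12 for NR by time to 0.12 for old hearts between the times, and the outlying points include Psmb5 at 0.63 in old + NR hearts.

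Of the 33 other genes of the pathway (assembly factors, ubiquitin receptors, regulators and ubiquitin genes, a list chosen with results of these data known), all were tested in hearts and few passed edgeR's quasi-likelihood test. Nfe2l2, which encodes the antioxidant response factor NRF2, stood at 860.4, 837 and 858 in young hearts at ZT10, 702, 835 and 842 in young hearts at ZT22, 900, 882 and 847 in old hearts at ZT10, 688, 721 and 678 in old hearts at ZT22, 855, 806 and 861 in old + NR hearts at ZT10 and 716, 712 and 689 in old + NR hearts at ZT22. It was higher at ZT10 than at ZT22 in old hearts (0.33 ± 0.06, adjusted p = 0.00336) and in old + NR hearts (0.25 ± 0.06, adjusted p = 0.019), in groups that did not overlap. It was lower in old than in young hearts at ZT22 (-0.19 ± 0.06, adjusted p = 0.048), all in edgeR's test. That last p was close to the threshold, and the young heart at 702 lay inside the range of the old. Fbxo7, an F-box protein that binds the inhibitor Psmf1, was higher at ZT10 in young hearts (0.33 ± 0.09, adjusted p = 0.0139). No other gene of the list passed in the heart comparisons.

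In HL-1 cells the first question was what FK866 alone does to subunit genes. With FK866, 8 members of 44 fell and 1 rose in edgeR's quasi-likelihood test, a share of 20.5%, where 24.8% of all genes passed, 12.6% as lower and 12.2% as higher. The median log2 fold change of the members was -0.1 against 0.02 for all genes, and 37 of 44 were negative, where 47.9% of all genes were. Members moved together within a culture: 38 of 44 lay below the untreated mean in untreated replicate 1 and 5 in untreated replicate 3. The members' median of a single culture had an SD of 0.079 between cultures of a group. The medians and negative counts of all HL-1 comparisons rest on 3 cultures per group and were not tested against this spread. Of the alpha ring, Psma7, Psma2 and Psma5 fell, of the beta ring the cutting subunit Psmb7 and the structural subunit Psmb2, of the regulatory particle only its chaperone Psmd10, and of the caps Psme1 and Psme2. No ATPase, no lid subunit and no Psmg chaperone passed.

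Psme2 and Psme1 form 1 cap, the interferon-inducible regulator of the immunoproteasome. The normalised counts of Psme2 were 1676, 1684 and 1859 in the untreated cultures, 1268, 1486 and 1167 with FK866, 1259, 1376 and 1265 with FK866 + NR and 1334, 1265 and 1338 with FK866 + NR + Ex527. All 9 treated cultures lay below all 3 untreated ones. With FK866 Psme2 fell by 0.41 on the log2 scale (SE 0.08, adjusted p = 0.00201 in edgeR's quasi-likelihood test), with FK866 + NR by 0.42 (adjusted p = 0.00942) and with FK866 + NR + Ex527 by 0.41 (adjusted p = 0.00591). The counts of Psme1 were 1822, 1896 and 2111 in the untreated cultures, 1637, 1680 and 1352 with FK866, 1465, 1598 and 1573 with FK866 + NR and 1438, 1536 and 1465 with FK866 + NR + Ex527. Here too the 9 treated cultures lay below the untreated ones, and the fall against untreated cells was 0.32 (adjusted p = 0.0103), 0.33 (adjusted p = 0.016) and 0.39 (adjusted p = 0.00717) on the log2 scale in edgeR's test. These 3 comparisons share the untreated cultures. Neither gene differed between FK866 + NR and FK866 beyond its error, with log2 fold changes of -0.01 for both.

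Psme3, the nuclear cap, rose with FK866. Its counts were 4613, 4446 and 4620 in the untreated cultures, 4967, 5175 and 5184 with FK866, 4122, 4335 and 4591 with FK866 + NR and 4794, 4811 and 4845 with FK866 + NR + Ex527. The FK866 cultures were above all untreated and all FK866 + NR cultures. The rise with FK866 was 0.16 ± 0.05 (adjusted p = 0.0378) and the fall from FK866 to FK866 + NR was 0.23 on the log2 scale (adjusted p = 0.00541) in edgeR's quasi-likelihood test. These comparisons share the FK866 cultures, so the FK866 values enter both. Psme4, the large cap that also acts on acetylated histones, stood at 5208, 4869 and 4469 in the untreated cultures, 5685, 5001 and 6048 with FK866, 5493, 5479 and 5746 with FK866 + NR and 5573, 5410 and 5695 with FK866 + NR + Ex527. It was the single member of 44 with a positive fold change between FK866 + NR and untreated cells (0.2), and it did not pass.

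Psma7, an alpha ring subunit, had the counts 7130, 7717 and 8723 in the untreated cultures, 6104, 6573 and 5639 with FK866, 6290, 6300 and 6268 with FK866 + NR and 7093, 6263 and 6885 with FK866 + NR + Ex527. Treated cultures lay below untreated ones with 9 of 9 under the lowest untreated value. It fell by 0.36 on the log2 scale with FK866 (SE 0.08, adjusted p = 0.00304 in edgeR's quasi-likelihood test) and passed under all 13 alternatives, as Psme2 did. The call of the other 7 members was lost under 2 to 8 of 13 alternatives. Psmd10, the chaperone of the base also known as gankyrin, had counts of 982, 977 and 1014 untreated and 729, 886 and 752 with FK866, without overlap, and fell by 0.33 on the log2 scale (adjusted p = 0.0154 in edgeR's test). Single cultures weighed on the count of 9 members: it was 11 without untreated replicate 1 (23.3% of all genes passed then), 5 without untreated replicate 2 (18%), 4 without untreated replicate 3 (18.9%), 4 without FK866 replicate 1 (17.2%), 15 without FK866 replicate 2 (27.4%) and 2 without FK866 replicate 3 (20%). The members' share ran from 4.55 to 34.1% in these fits.

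The next question was what NR adds to FK866. With FK866 + NR against FK866, 10 members of 44 fell and 0 rose in edgeR's quasi-likelihood test, a share of 22.7% where 28.9% of all genes passed and 15% passed as lower. The median of the members was -0.13 against 0.01 for all genes, and 41 of 44 were negative, where 49.3% of all genes were. The chaperones of the alpha ring led, with Psmg4, Psmg3 and Psmg1 lower and Psmg2 at -0.15. Of the base the ATPases Psmc3 and Psmc4 and the ubiquitin receptor Psmd4 fell, of the lid Psmd8, of the cutting subunits Psmb6, and of the regulators Psme3 and Psmf1. No alpha ring subunit passed.

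The normalised counts of Psmg4 were 266, 259.9 and 338 in the untreated cultures, 279, 346 and 257 with FK866, 185, 235 and 194 with FK866 + NR and 258, 232 and 284 with FK866 + NR + Ex527. The FK866 + NR cultures lay below all FK866 and all untreated cultures. Psmg4 fell by 0.52 on the log2 scale (SE 0.14, adjusted p = 0.0138 in edgeR's quasi-likelihood test) against FK866. Psmg1, which pairs with Psmg2, stood at 885, 1063 and 847 with FK866 and 708, 739 and 712 with FK866 + NR and fell by 0.37 on the log2 scale (adjusted p = 0.0102). Psmg3, which pairs with Psmg4, stood at 276, 274 and 209.7 and 186, 176 and 209 and fell by 0.4 on the log2 scale (adjusted p = 0.0274 in edgeR's test). Neither pair of groups overlapped. Psmc3, an ATPase of the base, stood at 7381, 8141 and 6807 with FK866 and 5869, 6302 and 6274 with FK866 + NR. It fell by 0.28 on the log2 scale (adjusted p = 0.00714 in edgeR's test) and, with Psme3, passed under all 13 alternatives. The count of 10 members was 4, 3 and 20 without FK866 replicate 1, 2 and 3, where 20.2%, 20% and 32.9% of all genes passed, and 4, 5 and 6 without FK866 + NR replicate 1, 2 and 3, where 19.4%, 21.9% and 22.2% did. The members' share ran from 6.82 to 45.5%, and it was above that of all genes in a single one of these fits, that without FK866 replicate 3.

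Against untreated cells the difference was wider. With FK866 + NR 31 of 44 members were lower than in untreated cells and 0 were higher in edgeR's quasi-likelihood test, a share of 70.5%, where 23.9% of all genes passed and 12.8% passed as lower. The median log2 fold change was -0.26, against 0 for all genes, with quartiles of -0.33 and -0.19, and 43 of 44 were negative, where 49.5% of all genes were. In 39 of 44 members all 3 FK866 + NR cultures lay below all 3 untreated cultures, and in 23.3% of all genes they did. No member passed the cut-off of an adjusted p under 0.01 with an absolute change over 1.5-fold, which 0.901% of all genes passed, since the widest change of a member was -0.49. DESeq2 called 32 lower and 1 higher, a count given without its share of all genes.

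The number that passed the threshold was uneven by role, while every member but Psme4 had a negative fold change. Of the core particle 6 of 7 alpha subunits (median -0.29), all 3 cutting subunits (median -0.39), all 4 structural beta subunits (median -0.35) and Psmb10 (-0.39) fell. Of the base 4 of 6 ATPases (median -0.22) and 1 of 3 other subunits fell, and of the lid 4 of 8 (median -0.2). All 4 Psmg chaperones fell (median -0.39), and 2 of the 3 chaperones of the regulatory particle did. Among caps and inhibitor Psme1 and Psme2 fell, and Psme3, Psme4 and Psmf1 did not pass. The difference between roles was not tested.

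Psmb6, which carries the caspase-like cutting site, had the smallest p. Its normalised counts were 4425, 4690 and 5104 in the untreated cultures, 4130, 4725 and 3713 with FK866, 3400, 3614 and 3542 with FK866 + NR and 4264, 4269 and 4364 with FK866 + NR + Ex527. The FK866 + NR cultures were below every culture of the other groups. The fall against untreated cells was 0.43 on the log2 scale (SE 0.08, 95% interval -0.61 to -0.25, adjusted p = 0.00911 in edgeR's quasi-likelihood test), and against FK866 it was 0.25 (adjusted p = 0.0266). Psma6, an alpha ring subunit, stood at 6220, 6230 and 6997 untreated and 4375, 5033 and 4732 with FK866 + NR and fell by 0.46 on the log2 scale (SE 0.11, adjusted p = 0.0153). In each of these genes the FK866 + NR cultures did not overlap the untreated ones.

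The other cutting subunits had the same order against untreated cells. Psmb5 stood at 1837, 1695 and 2124 in the untreated cultures, 1469, 1924 and 1459 with FK866, 1373, 1515 and 1422 with FK866 + NR and 1707, 1659 and 1558 with FK866 + NR + Ex527. It fell by 0.39 on the log2 scale with FK866 + NR (adjusted p = 0.019 in edgeR's quasi-likelihood test), without overlap with untreated cells. Psmb7, which carries the trypsin-like site, stood at 6195, 6635 and 6734 in the untreated cultures, 5676, 5696 and 5187 with FK866, 4666, 5508 and 5631 with FK866 + NR and 6431, 5626 and 6923 with FK866 + NR + Ex527. It fell by 0.31 on the log2 scale with FK866 + NR (adjusted p = 0.0207) and by 0.24 with FK866 (adjusted p = 0.0474) in edgeR's test, and neither group overlapped the untreated cultures.

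Psmb10 followed the constitutive subunits, with counts of 566, 555 and 690.3 in the untreated cultures, 534, 640.1 and 458 with FK866, 429.6, 473 and 477 with FK866 + NR and 515, 518 and 534 with FK866 + NR + Ex527. It fell by 0.39 on the log2 scale with FK866 + NR against untreated cells (SE 0.11, adjusted p = 0.0251 in edgeR's quasi-likelihood test). Psmb9, at 49, 55 and 84.2 untreated and 32.7, 36.5 and 48.9 with FK866 + NR, had a log2 fold change of -0.66 ± 0.27 (adjusted p = 0.0855), and Psmb8 one of -0.15 ± 0.18 (adjusted p = 0.554). Psmd14, the deubiquitinase of the lid, stood at 6510, 6764 and 7179 in the untreated cultures, 6434, 6690 and 5648 with FK866, 5753, 5907 and 6038 with FK866 + NR and 6309, 5510 and 6702 with FK866 + NR + Ex527. Its FK866 + NR cultures lay below the untreated ones, and its log2 fold change of -0.21 ± 0.08 did not pass (adjusted p = 0.0614 in edgeR's test).

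How many members passed rested on single cultures, while the direction held in each of these fits. Without untreated replicate 3 there were 2 members (Psmb6 and Psme2), while 3.31% of all genes passed, and without FK866 + NR replicate 1 there were the same 2, while 2.47% of all genes passed. The count was 18 without untreated replicate 2, 18 without FK866 + NR replicate 2, 20 without FK866 + NR replicate 3 and 31 without untreated replicate 1. These counts are given without the share of all genes. That share was 23.9% with all cultures, so members and all genes fell together in the fits that left 2 members. Over these 6 fits 42 or 43 members were negative, and their median ran from -0.28 to -0.22. The library medians show the same cultures: relative to the untreated mean the median over members was -0.058, -0.031 and 0.095 in the untreated cultures and -0.306, -0.229 and -0.227 with FK866 + NR. The highest culture was untreated replicate 3 and the lowest FK866 + NR replicate 1, the culture with counts of globin, leukocyte and endothelial genes given above, whose part in these values was not tested. With FK866 the medians were -0.098, -0.007 and -0.209, and with FK866 + NR + Ex527 -0.134, -0.21 and -0.058, and both groups reached from near the untreated to near the FK866 + NR cultures.

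**Figure D3:**
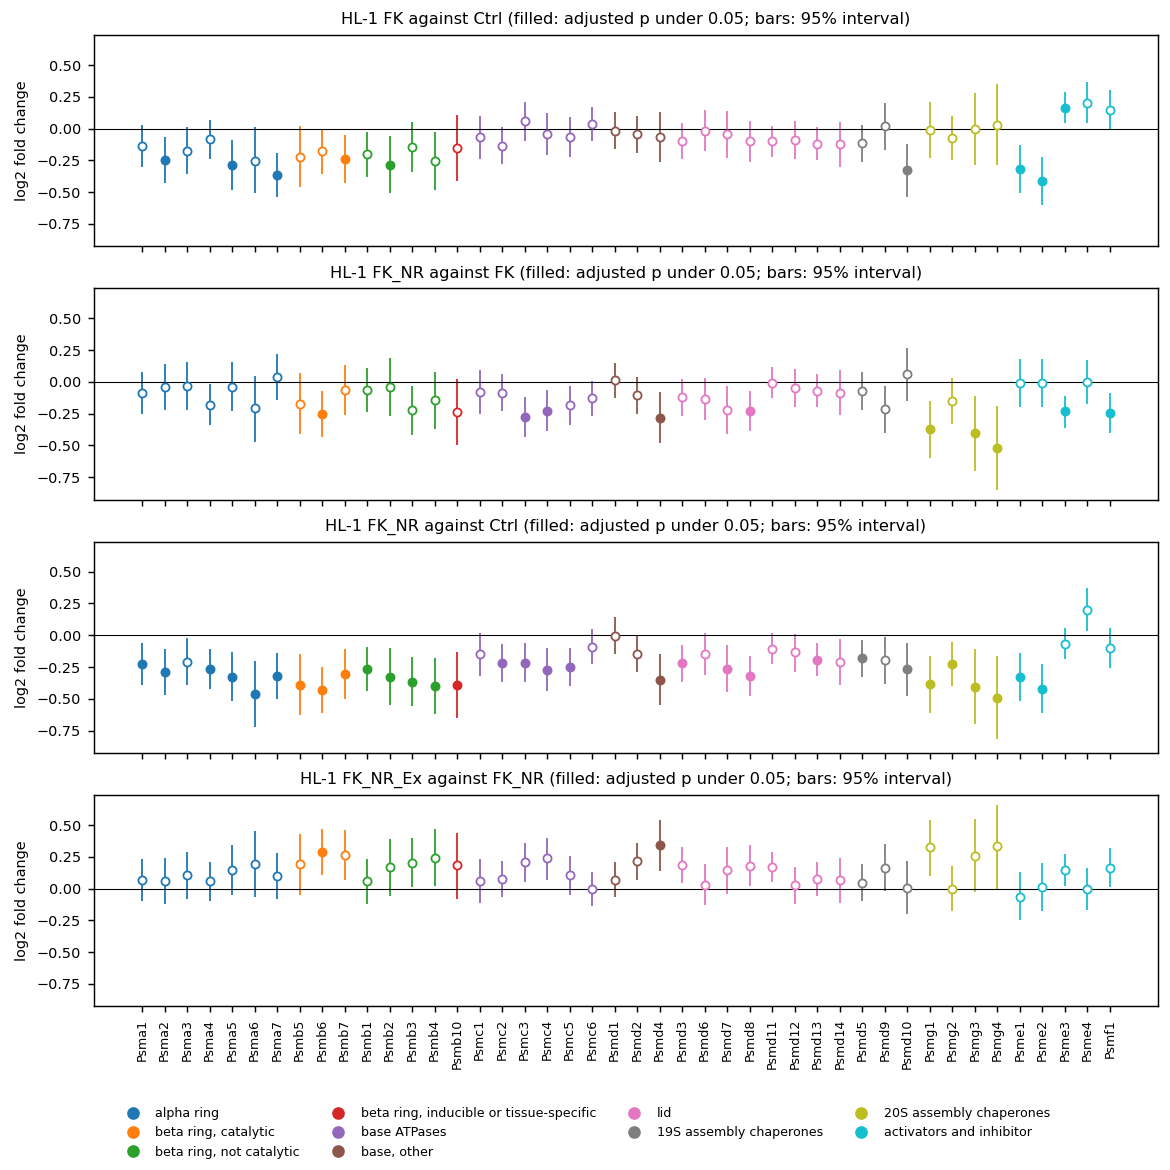
Log2 fold change of the 44 tested subunit genes in 4 HL-1 comparisons, with 95% intervals (Ctrl, untreated; FK, FK866; Ex, Ex527), filled where the adjusted p was under 0.05 and colored by role. In FK866 + NR against untreated cells 31 points are filled and 43 lie below 0, and in FK866 + NR + Ex527 against FK866 + NR 2 are filled and 41 lie above 0.

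**Figure D4:**
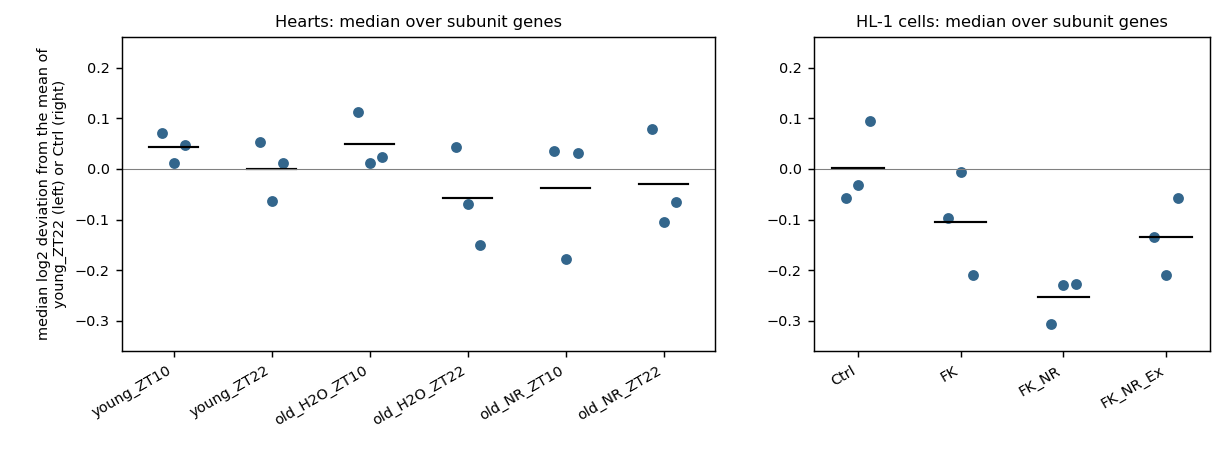
Median over the subunit genes of the log2 deviation of each library (points) from the mean of young hearts at ZT22 (left) or of untreated cells (right; Ctrl, untreated; FK, FK866; Ex, Ex527; old_H2O, old mice on plain water), with the group mean as a line. Heart groups overlap throughout, and the 3 FK866 + NR cultures lie between -0.306 and -0.227, below all untreated cultures.

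Ex527 was added to ask which effects of NR need SIRT1 activity. With FK866 + NR + Ex527 against FK866 + NR, 2 of 44 members rose and 0 fell in edgeR's quasi-likelihood test, a share of 4.55% where 7.17% of all genes passed and 3.86% passed as higher. The median was 0.15 against 0 for all genes, and 3 of 44 were negative, where 50.2% of all genes were. Of the members 18 had all Ex527 cultures above all FK866 + NR cultures (18.1% of all genes did), and 15 had an unadjusted p under 0.05 (23.2% of all genes did). Psmd4, which binds ubiquitin chains on the base, had the counts 4299, 4374 and 4757 in the untreated cultures, 4317, 4849 and 3676 with FK866, 3282, 3686 and 3573 with FK866 + NR and 4614, 4208 and 4531 with FK866 + NR + Ex527. The FK866 + NR cultures were below all untreated and all Ex527 cultures, and 1 FK866 culture lay among them. Psmd4 rose by 0.34 ± 0.09 (adjusted p = 0.0289) and Psmb6 by 0.29 ± 0.08 (adjusted p = 0.0389) in edgeR's test, without overlap. Psmd4 kept its call under 7 of 13 alternatives and Psmb6 under 4. This comparison shares the FK866 + NR cultures with those above, so the FK866 + NR values enter both. The count of 2 was 0 when any FK866 + NR replicate, or Ex527 replicate 1 or 3, was left out, and 4 without Ex527 replicate 2, where 2.74 to 4.28% of all genes passed. Other fits called more members: DESeq2 called 7 (15.9% of members and 9.59% of all genes), edgeR without a filter on low counts 7 (15.6% and 6.44%), and edgeR on the groups compared alone 13 (29.5% and 15.1%), all higher. With library size as a covariate 0 members and 1.35% of all genes passed.

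Against FK866 alone no member passed with FK866 + NR + Ex527 in edgeR's quasi-likelihood test, where 12.2% of all genes did, 3 members had an unadjusted p under 0.05 (27.1% of all genes did), and DESeq2 called 1, Psmd11. Psmd11, a lid subunit, stood at 5714, 5768 and 5688 in the untreated cultures, 5348, 5137 and 5542 with FK866, 5281, 5314 and 5348 with FK866 + NR and 5990, 5713 and 6259 with FK866 + NR + Ex527. The 3 Ex527 cultures lay above the FK866 cultures (0.16 ± 0.05, adjusted p = 0.0562 in edgeR's test). The median of the members was -0.02. Against untreated cells 2 members of 44, Psme1 and Psme2, were lower with FK866 + NR + Ex527, a share of 4.55% where 16.3% of all genes passed and 7.68% passed as lower. The median was -0.14 with 38 of 44 negative, where 49.5% of all genes were. That count was 8 without untreated replicate 1, 7 lower and Psme4 higher, where 19.7% of all genes passed, and 4 without Ex527 replicate 3, where 12.8% did, and Psme1 and Psme2 passed under all 13 alternatives.

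**Figure D5:**
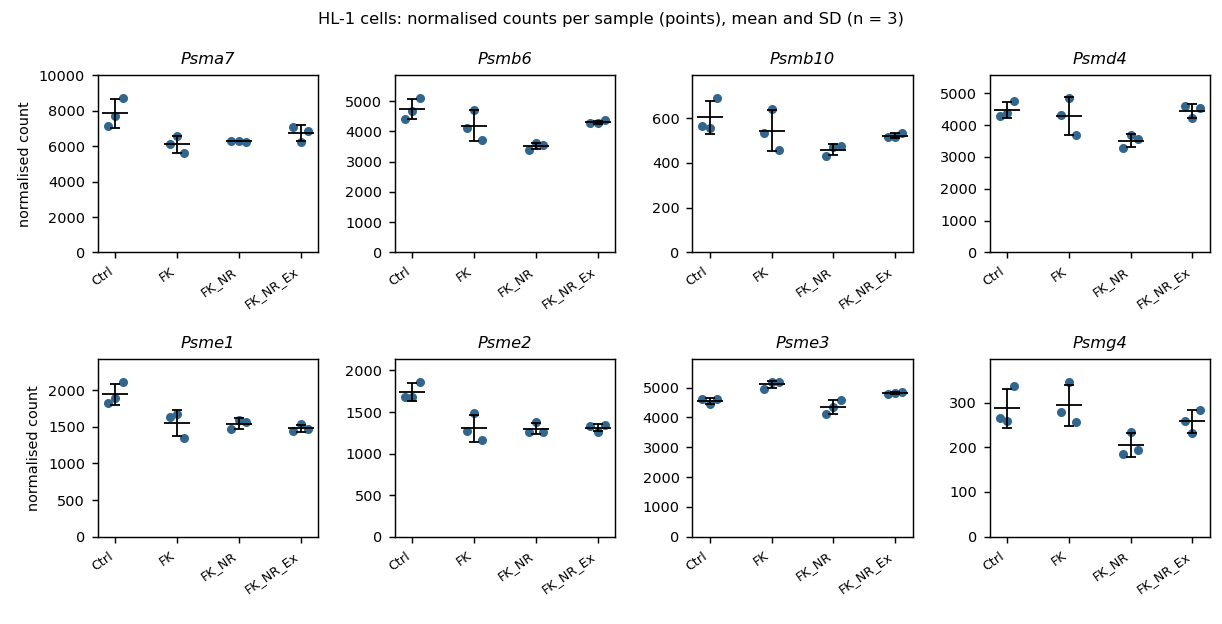
Normalised counts of 8 subunit genes in each HL-1 culture (points), with the mean and SD of 3 cultures, on axes that start at 0 (Ctrl, untreated; FK, FK866; Ex, Ex527). Psme1 and Psme2 are lower in all 9 treated cultures, Psme3 is highest with FK866, and Psmb6, Psmd4 and Psmg4 are lowest with FK866 + NR.

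Of the 33 other genes of the pathway, all tested in HL-1 cells, 3 rose and 2 fell with FK866, 1 rose and 6 fell from FK866 to FK866 + NR, and 1 rose and 9 fell from untreated cells to FK866 + NR, all in edgeR's quasi-likelihood test, where 24.8%, 28.9% and 23.9% of all genes passed in either direction. In the last comparison Adrm1, a ubiquitin receptor of the base (-0.3 ± 0.08), its partner deubiquitinase Uchl5 (-0.25 ± 0.07), Pomp, the maturation factor of the core (-0.33 ± 0.09), the small lid subunit Sem1 (-0.27 ± 0.09) and Akirin2, which brings proteasomes into the nucleus (-0.2 ± 0.07), fell. The shuttle factor Ubqln4 (-0.24 ± 0.06) and the ubiquitin genes Ubb (-0.3 ± 0.08) and Rps27a (-1.11 ± 0.26) fell as well, and Ecpas, an adaptor that holds proteasomes together and takes them to membranes, rose by 0.22 ± 0.07. The median of the 33 was -0.05 on the log2 scale, against -0.26 for the members. With Ex527 added to FK866 + NR, Adrm1 rose by 0.3 ± 0.08 and no gene of the list fell.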

How the data were processed

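RNA was sequenced from 18 mouse hearts and 12 HL-1 cultures. The submitters' processing notes name STAR (version 2.7.10a) and HISAT2 among the aligners, featureCounts (version 2.0.4) as a counter, and the build mm10. Heart reads were single-end, and duplicates were removed from them with Picard (version 3.0.0) before counting. The counter of the HL-1 table is not given in the sources used here. The deposited raw counts per gene were used for both sets, and the heart table whose name speaks of normalised values held whole-number counts. Per-sample FPKM values that the authors deposited were not used, and a deposited table of normalised scores served only for its gene symbols. Hearts and cells were analysed separately, with 3 samples per group and 0 columns of unmapped samples.

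Genes were kept by an average count over 5 in hearts and by edgeR's filterByExpr in HL-1 cells. Fits used edgeR 4.0.16 (limma 3.58.1, R 4.3.3) with TMM scaling, all groups of a set in 1 quasi-likelihood fit, two-sided tests, and Benjamini-Hochberg adjustment over all genes tested at 0.05. A normalised count is a count divided by the effective library size and multiplied by the mean effective size. ± after a log2 fold change is the SE. DESeq2 1.42.0, other scaling and filters, a fit of the groups compared alone, the replicate number as a block and each library left out were the alternatives, and a library size covariate was added after seeing the data. Values in every sample are given for the 3 called members with the widest fold change in a comparison, or the 1 with the smallest p, and for 10 fixed members (Psmb5, Psmb6, Psmb7, Psmb10, Psmd11, Psmd14 and Psme1 to Psme4). The members and lists were chosen with earlier results of these data known. The scripts were tested on simulated data. The values of 1 gene counted in the pathway list are not reported here.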

Additional observations from a re-analysis of the deposited data

How the results depend on the processing

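The number of members called moved under some alternatives, and the share of all genes called moved too. Of 64 tested member fold changes, named or called, with 844 alternative fits, 641 kept their side of the threshold, 194 lost the call, 9 gained it and 0 changed direction. These 64 were picked by their p in the same libraries. A change of direction was therefore unlikely from the start, and the 0 does not measure how stable directions are. In old + NR hearts between the times 1 member (Psmb5) was called under DESeq2, without a filter, with only the groups compared and with the library size covariate, which was chosen after seeing the data. Of all genes 4.22%, 3.72%, 4.97% and 7.91% passed in these fits. The HL-1 counts that follow stand without the share of all genes where it is not given above, and do not single out the members. For FK866 against untreated cells the count was 5 with only the groups compared, and for FK866 + NR against FK866 it was 6. For FK866 + NR + Ex527 against FK866 + NR it was 7 under DESeq2, 7 without a filter, 4 with an average count over 5, 13 with only the groups compared and 0 with the covariate, against FK866 it was 1 under DESeq2, and against untreated cells it was 8 under DESeq2 and 5 without a filter. The cut-off on both p and fold change left 0 members in each HL-1 comparison, and 0.901% of all genes passed it for FK866 + NR against untreated cells. The members' median for Ex527 against FK866 was 0.06 with the covariate.

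Leaving out 1 library gave 0 to 1 members in young hearts between the times, 0 to 2 for old against young hearts at ZT22, 2 to 15 for FK866, 3 to 20 for FK866 + NR against FK866, 2 to 31 for FK866 + NR against untreated cells, and, with Ex527, 0 to 4 against FK866 + NR, 0 to 1 against FK866 and 2 to 8 against untreated cells. The share of all genes called moved between these fits as well, so the ranges do not single out the members. The cause of these moves was not tested.

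Same-numbered samples had correlations of their deviations from -0.09 to 0.16 in hearts and from -0.27 to 0.13 in HL-1 cells, and 10 of 18 and 6 of 12 samples were closest to their own number, so a correlation over 0.1 in every pair was not met and the fit without the block was kept. No label says that a number marks a shared day or batch, and this was not tested further. Replicate 1 had the highest members' median in 6 of 6 heart groups. The block raised the share of all genes called in 9 of 9 heart comparisons and lowered it in 6 of 6 in HL-1 cells. With the replicate block 1 member was called in old hearts between the times (Psmc1, where 4.93% of all genes passed) and 1 for old against young hearts at ZT22 (Psmg2, where 15.5% did). In HL-1 cells it was 1 for Ex527 against FK866 + NR and 26 for FK866 + NR against untreated cells, given without the share of all genes.

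With 3 samples per group, the median SE of a member's log2 fold change in hearts was 0.08, which sets the width of the intervals given.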
